A study of Mus musculus with 8 samples.

Results

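The cytosolic heat shock chaperones are the proteins that hold, fold and refold other proteins in the cytosol and nucleus. HSP70 proteins bind short exposed stretches of unfolded protein and release them in an ATP cycle. J proteins (HSP40) bring in the substrate and start ATP hydrolysis, HSP110 proteins exchange the nucleotide, and HSP90 receives clients such as kinases and steroid receptors for their last folding steps. Small heat shock proteins hold unfolded protein without ATP. Many of these genes are transcribed more strongly after heat or unfolded protein through heat shock factor 1, which binds repeats of the letters GAA and TTC, and in neurons, which are not replaced, this machinery has been studied closely for its part in protein aggregation.

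Here 10 of these genes were followed by symbol and Ensembl identifier, out of 22430 genes in the count table, namely the constitutive HSP70 gene Hspa8, the HSP110 genes Hspa4, Hspa4l and Hsph1, the HSP90 genes Hsp90aa1 and Hsp90ab1, the J protein genes Dnaja1, Dnaja2 and Dnajb1, and the small heat shock protein gene Cryab. They were chosen by family and not by a measured value, although earlier results of these data were known. All 10 had a mean count over 5 across the libraries, the minimum for testing, and were among 9375 tested genes. Each library held the RNA of a brain hemisphere from a male C57Bl/6JRj mouse, 4 of them young adults at 6 months (6m) and 4 aged adults at 24 months (24m), with no transgene, deletion or treatment in either group. According to the methods, native RNA was read on a nanopore device (ONT direct RNA sequencing). The sample labels instead name a directional poly(A) kit made for short reads, and the methods were followed. The sources used here do not say which libraries shared a flow cell or a day, so the ages and such runs cannot be told apart.

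Total counts per library ran from 573152 to 1255424, and those of the chaperones from 3477 to 7383. Values are counts per 1000000 reads counted (CPM) on library sizes scaled by TMM, a method that sets the typical gene equal between libraries, and TMM factors were 0.958 to 0.972 at 6m and 0.993 to 1.06 at 24m. Neuronal marker genes summed to 2516 to 2672 CPM at 6m and 2942 to 3035 at 24m, and those of oligodendrocytes to 2146 to 2697 and 2930 to 3807, so that both defining cell types of the labelled tissue were present. Markers of red blood cells summed to 6090 to 10032 CPM at 6m and 3350 to 6283 at 24m, and all 5 were lower at 24m by the test used here. Of the other tested marker genes, 1 of 8 neuronal, 2 of 10 oligodendrocyte and 3 of 7 astrocyte genes were changed and higher. So were 1 of 7 microglial and 1 of 6 immediate early genes, beside 10.3% of all tested genes. An astrocyte gene was the 1 changed and lower, beside 4.17% of all tested genes, and 0 of 3 endothelial genes were changed. Mitochondrially encoded genes held 8.67 to 10.9% of counts at 6m and 6.48 to 8.94% at 24m. The part of these shifts in the results on chaperones was not tested.

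The age comparison asked which of these chaperones differed between the 24m and the 6m brain. A gene was called changed when edgeR's quasi-likelihood test gave a p, adjusted by Benjamini-Hochberg over all tested genes, that did not exceed 0.05, and an absolute log2 fold change (log2FC, 24m against 6m) of at least 0.58. Both HSP90 genes and the HSP110 gene Hsph1 fell, Dnaja1, Dnaja2 and Cryab had lower levels that passed the adjusted p but not the fold minimum, and Hspa8, Hspa4, Hspa4l and Dnajb1 did not pass either. As bulk RNA of a hemisphere was measured, fewer cells of a type and less RNA per cell cannot be told apart.

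Thus 3 of 10 chaperones were changed and lower, against 4.17% of all tested genes, and none was changed and higher, against 10.3%. Higher genes were 71.2% of all calls, a split that was 84.5% with library sizes alone and 59.2% in limma-voom with quantile normalization. No chaperone was higher at an unadjusted p under 0.05 in edgeR, against 18.3% of all tested genes. DESeq2 on raw counts and limma-voom called 0 higher, against 629 and 701 of 9375 tested genes. With only 10 genes, these counts of 0 say little. By the adjusted p alone, 6 of 10 were lower, against 9.42% of all tested genes, and none was higher, against 12.3%. In the same 6 genes every 24m library lay below every 6m library in CPM, which 9.96% of tested genes showed, and in none did every 24m library lie above, which 11.1% showed. The median log2FC of the 10 chaperones was -0.45, beside -0.003 over all tested genes, with 8 negative and 2 positive values. Abundance moved with this pattern, since genes of high CPM were more often lower at 24m by the adjusted p: 16.6% of 1146 genes between 100 and 300 CPM, 32.8% of 409 genes between 300 and 1000 CPM and 47.4% of 152 genes over 1000 CPM. Few of these abundant genes reached the fold minimum, with 2.53%, 0.978% and 3.29% changed and lower in those ranges, and the median log2FC there was -0.08, -0.18 and -0.24. Read against these ranges, Hspa8 and Hsp90ab1 stood over 1000 CPM, Hsp90aa1 and Cryab between 300 and 1000, Hsph1, Dnaja1 and Dnaja2 between 100 and 300, and the other chaperones under 100 CPM.

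**Figure D1:**
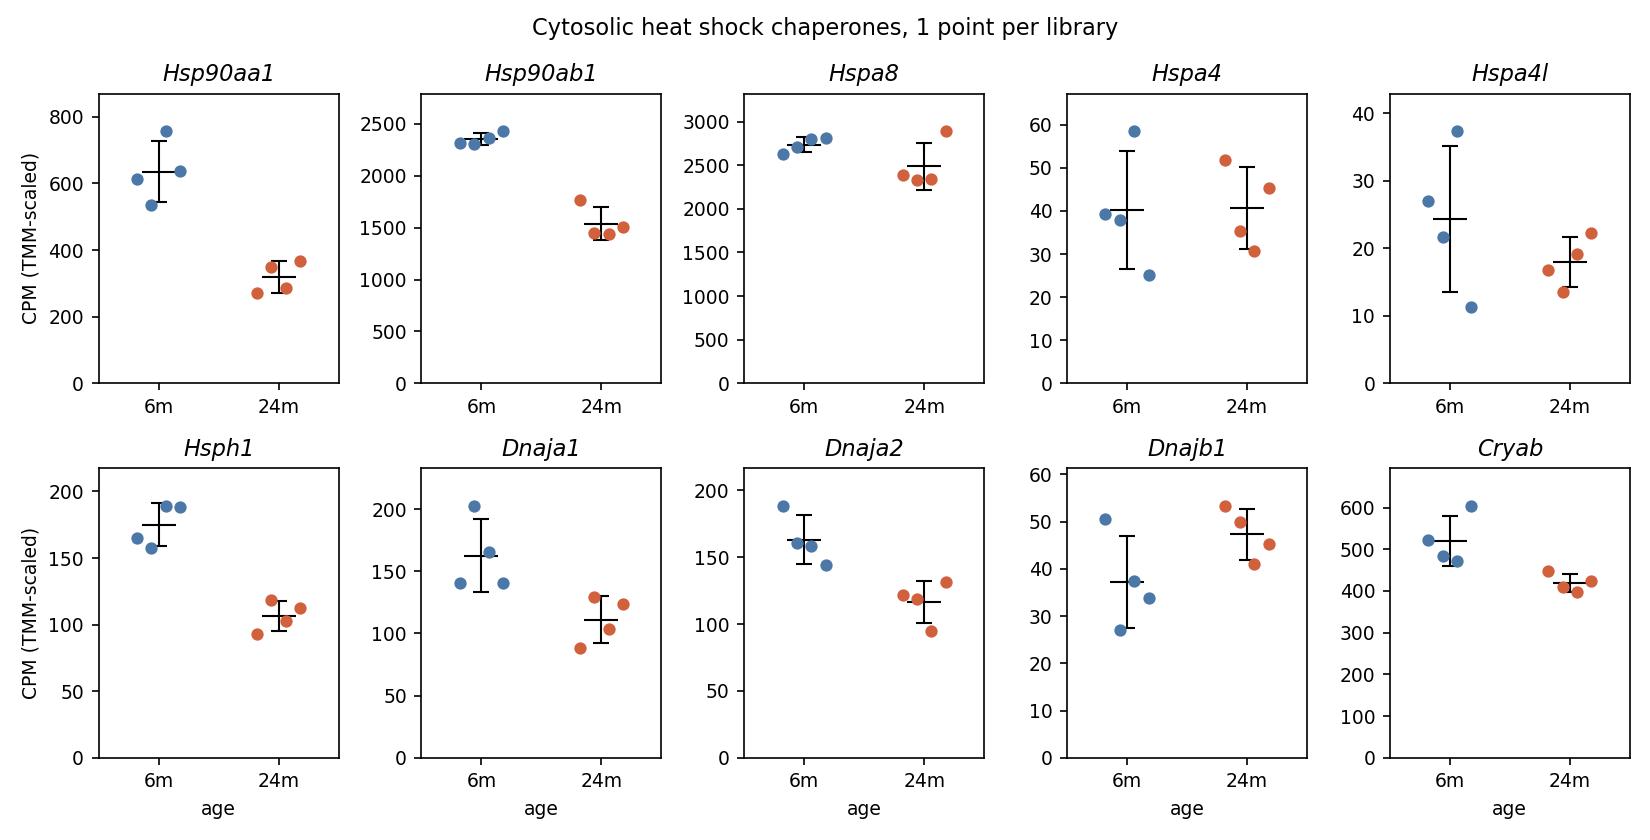
CPM of each chaperone (vertical axis, from 0, a separate scale per gene) in the 4 6m (blue) and 4 24m (orange) libraries, with 1 point per library and the mean and SD as black bars. The ages do not overlap for Hsp90aa1, Hsp90ab1, Hsph1, Dnaja1, Dnaja2 and Cryab, and overlap for Hspa8, Hspa4, Hspa4l and Dnajb1.

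Of the HSP90 genes, Hsp90aa1 (chr12:110656842-110669166, minus strand, GRCm39) codes for HSP90 alpha, the form that is more inducible by stress. Its level was 613, 535, 757 and 638 CPM in 6m replicates 1 to 4, and 271, 350, 285 and 367 CPM in 24m replicates 1 to 4. The lowest 6m library was thus still well above the highest 24m library. The 6m mean was 636 ± 91.8 CPM and the 24m mean 319 ± 47.4 CPM (SD, n = 4 in both ages). The log2FC fitted by edgeR was -0.99 ± 0.11 (SE, edgeR adjusted p = 1.06e-06), a level 1.98-fold higher at 6m. Of all tested genes, 1.87% had a log2FC as low or lower. Hsp90aa1 was called under each of the 18 alternatives, 10 other settings and 8 fits without 1 library, with log2FC from -1.05 to -0.88.

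Hsp90ab1 (chr17:45878552-45891949, minus strand) codes for HSP90 beta, the constitutive form. Its level was 2317, 2311, 2364 and 2429 CPM in 6m replicates 1 to 4, and 1768, 1450, 1435 and 1502 CPM in 24m replicates 1 to 4. The 6m libraries were close together, with a coefficient of variation of 2.32%, and the 24m libraries were wider at 10.1%, since 24m replicate 1 stood above the other 24m libraries. From 2355 ± 54.5 CPM the mean fell to 1539 ± 156 CPM (SD, n = 4 in both ages), and its log2FC was -0.62 ± 0.09 (SE, edgeR adjusted p = 1.70e-05). This value lies near the fold minimum, and it dropped just under it without 24m replicate 3 (-0.58) and further with quantile normalization (-0.41) or library sizes alone (-0.51), while the adjusted p stayed at or below 0.000244.

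Within a library the balance of the HSP90 genes needs no scaling between libraries. Hsp90aa1 made up 20.9, 18.8, 24.3 and 20.8% of the summed counts of Hsp90aa1 and Hsp90ab1 in 6m replicates 1 to 4, and 13.3, 19.5, 16.6 and 19.7% in 24m replicates 1 to 4. The ages overlapped, as 24m replicates 2 and 4 lay above the lowest 6m library. The mean share was 21.2 ± 2.26% at 6m and 17.3 ± 2.98% at 24m (SD, n = 4 each), and the difference of -3.94 percentage points had p = 0.0857 in a two-sided exact permutation test, where 0.0286 is the smallest p possible, and 0.257 after adjustment over 3 shares. After adjustment over 3 shares, even the smallest p possible stays above the limit used here for the adjusted p, unless another share differs too. The adjusted test could therefore not detect an unequal change of the HSP90 genes alone, and no conclusion on equal change is drawn from it. The lowest share, in 24m replicate 1, had a 95% Clopper-Pearson interval of 11.5 to 15.2% and the highest, in 6m replicate 3, one of 22.6 to 26.0%, both of which cover counting error only.

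The constitutive HSP70 gene Hspa8 (chr9:40711630-40731039, plus strand) codes for HSC70, which folds new proteins and uncoats clathrin vesicles at the synapse. Its level was 2629, 2705, 2799 and 2813 CPM in 6m replicates 1 to 4, and 2387, 2330, 2343 and 2890 CPM in 24m replicates 1 to 4. Of the 24m libraries, 3 were below every 6m library and 24m replicate 4 was above all of them. The 6m mean was 2737 ± 86.1 CPM and the 24m mean 2488 ± 270 CPM (SD, n = 4 in both ages), and the log2FC was -0.14 ± 0.09 (SE, edgeR adjusted p = 0.293), which did not pass the test, and under quantile normalization it took the other sign, 0.09 in DESeq2 and 0.11 in limma-voom. Counts of Hspa8 are uncertain, since 5 processed pseudogenes cover 81.1% of its transcript at 95.3 to 99.7% identity and none of them has a row in the count table. Hsp90aa1 has a pair of such copies, over 63.9 and 62.4% of its transcript at 99.5 and 98.5% identity, and no copy of this kind was found for the other 8 chaperones.

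Taken against Hspa8 in the same library, a choice made after the values were seen and therefore not tested, Hsp90ab1 made up 45.8 to 46.8% of the summed counts of both genes at 6m and 34.2 to 42.6% at 24m. For Hsp90aa1 this share was 16.5 to 21.3% at 6m and 10.2 to 13.1% at 24m. For Hsph1 it was 5.50 to 6.33% and 3.75 to 4.84%. In each of the 3 shares the ages did not overlap, a change relative to Hspa8 that says nothing of either gene alone. The 3 genes were those called lower, whose CPM already did not overlap between the ages, while Hspa8 had a log2FC of -0.14. The 3 shares are therefore no separate support for these calls.

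**Figure D2:**
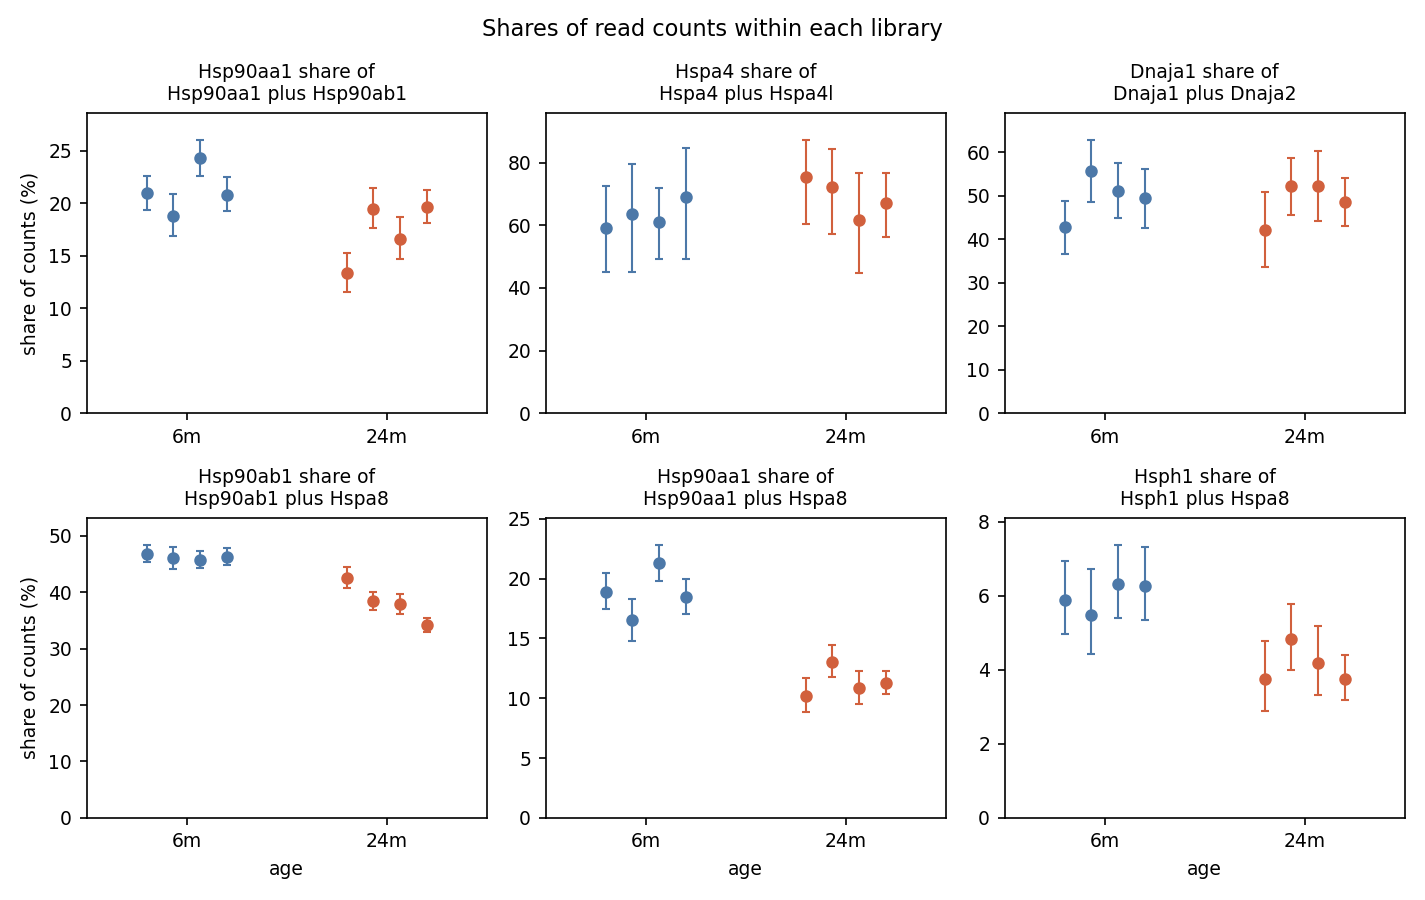
Shares of read counts within each library (vertical axis, percent, from 0) for 6 pairs of chaperones, with 1 point per library (6m blue, 24m orange) and its 95% Clopper-Pearson interval as the bar. The 3 shares of near relatives in the upper row overlap between the ages. The 3 shares against Hspa8 in the lower row do not, but they hold the genes called lower and were chosen after the values were seen.

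HSP110 proteins are distant HSP70 relatives that act as nucleotide exchange factors, and together with HSP70 and J proteins they dissolve aggregates. Hsph1 (chr5:149537636-149560156, minus strand), also known as HSP105, had 165, 157, 189 and 188 CPM in 6m replicates 1 to 4, and 93.0, 119, 102 and 113 CPM in 24m replicates 1 to 4. No 24m library reached the lowest 6m library. Its mean of 175 ± 16.3 CPM fell to 107 ± 11.3 CPM (SD, n = 4 in both ages), and the log2FC was -0.71 ± 0.13 (SE, edgeR adjusted p = 0.000287), and Hsph1 remained called under all 18 alternatives, with log2FC from -0.76 to -0.60.

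The other HSP110 genes had few counts. Hspa4 (chr11:53150641-53191531, minus strand), also known as APG-2, had 20 to 59 counts per library and 25.1 to 58.5 CPM at 6m and 30.7 to 51.8 CPM at 24m. Its log2FC was 0.01 ± 0.22 (SE, edgeR adjusted p = 0.982), and its sign turned under 6 of 18 alternatives, with -0.16 without 6m replicate 4. Hspa4l (chr3:40698643-40750538, plus strand), also known as APG-1, had 9 to 30 counts per library, 11.3 to 37.3 CPM at 6m and 13.5 to 22.2 CPM at 24m, and a log2FC of -0.43 ± 0.30 (SE, edgeR adjusted p = 0.331). For Hspa4l it ran from -0.12 without 6m replicate 3 to -0.67 without 6m replicate 4. For both genes the 24m range lay within the 6m range, and a difference was not detected. Hspa4 made up 63.2 ± 4.23% of the counts of Hspa4 and Hspa4l at 6m and 69.1 ± 6.15% at 24m (SD, n = 4 each; two-sided exact permutation p = 0.171, adjusted 0.257).

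J proteins set HSP70 to work on its substrates. Dnaja1 (chr4:40722056-40737149, plus strand) had 140, 203, 166 and 141 CPM in 6m replicates 1 to 4, and 88.4, 129, 104 and 123 CPM in 24m replicates 1 to 4. The ages did not overlap, although 6m replicates 1 and 4 and 24m replicate 2 were close. The log2FC was -0.51 ± 0.14 (SE, edgeR adjusted p = 0.0120), below the fold minimum. Without 24m replicate 2 it was called, at -0.59 with an adjusted p of 0.0173, whereas without 6m replicate 2 the adjusted p was 0.0701. Counted over all annotated transcripts, Dnaja1 shares 7150 exon bases with Smu1, a splicing factor gene on the opposite strand. Of the changed chaperones, Hsp90ab1 shares such bases with Gm56882 (1617) and Slc35b2 (266), Hsph1 with Gm73411 (956) and Gm20005 (289), and Hsp90aa1 with Gm53768 (89). The strand setting of the counting is not given in the sources used here. Smu1 itself had a log2FC of -0.22 (edgeR adjusted p = 0.326).

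Dnaja2 (chr8:86264259-86282031, minus strand) is the close relative of Dnaja1 and shares its domain plan. Its level was 188, 161, 158 and 144 CPM in 6m replicates 1 to 4, and 122, 119, 94.7 and 131 CPM in 24m replicates 1 to 4. Again no 24m library reached the lowest 6m library, and the log2FC was -0.48 ± 0.13 (SE, edgeR adjusted p = 0.0114). The adjusted p rose to 0.0730 without 6m replicate 1 and to 0.0564 without 24m replicate 3. Dnaja1 held 49.7 ± 5.40% of the counts of both genes at 6m and 48.7 ± 4.79% at 24m (SD, n = 4 each), and this difference of -1.01 percentage points (two-sided exact permutation p = 0.800) took the other sign without 6m replicate 2 (0.991) or 24m replicate 1 (1.22).

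Dnajb1 (chr8:84334811-84339820, plus strand) codes for the heat-inducible J protein HSP40. Its level was 50.5, 27.1, 37.3 and 33.9 CPM in 6m replicates 1 to 4, and 53.3, 49.9, 41.0 and 45.3 CPM in 24m replicates 1 to 4. Of the 6m libraries, replicate 1 reached into the 24m range, and the other 3 lay below it. The log2FC of 0.31 ± 0.19 (SE, edgeR adjusted p = 0.253) did not pass the test, and it was positive, from 0.22 to 0.51, under all 18 alternatives without a call.

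Cryab (chr9:50651859-50668567, plus strand) codes for alpha B crystallin, the small heat shock protein of lens and muscle, which in the brain is found chiefly in glia, oligodendrocytes above all. Its level was 523, 483, 472 and 604 CPM in 6m replicates 1 to 4, and 448, 409, 397 and 423 CPM in 24m replicates 1 to 4. The highest 24m library was just below the lowest 6m library. The 6m mean was 520 ± 60.0 CPM and the 24m mean 419 ± 22.2 CPM (SD, n = 4 in both ages), with a log2FC of -0.32 ± 0.09 (SE, edgeR adjusted p = 0.0188), below the fold minimum. The adjusted p was over 0.05 under 7 of the 18 alternatives, the highest being 0.136 with quantile normalization in DESeq2, and among them were the fits without 6m replicate 1 (0.0602), 6m replicate 4 (0.131), 24m replicate 2 (0.0583) or 24m replicate 3 (0.0711).

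Markers of cells rich in Cryab were set beside it. The 10 oligodendrocyte markers had a median log2FC of 0.45, and Mbp, which codes for a main protein of myelin and was named after its value was seen, was changed and higher (log2FC 0.72 ± 0.13, SE). Their summed level was higher at 24m without overlap between the ages, while Cryab was lower. Mbp weighed most in this sum, at 1073 CPM at 6m and 1770 CPM at 24m, and its own libraries overlapped between the ages. In 2 of the 10 markers every 24m library lay above every 6m library. Of the log2FC, 8 were positive and 2 negative, Mag (-0.08) and Opalin (-0.27). Whether cell numbers had a part in the level of Cryab was not tested. Lens markers summed to 7.53 to 20.9 CPM at 6m and 9.15 to 19.2 CPM at 24m, of which Mip was at 0 in every library, and markers of skeletal and heart muscle to 46.8 to 79.7 and 43.7 to 71.6 CPM. On the opposite strand, Cryab shares 757 exon bases with Hspb2 and 871 with 2310030G06Rik, which had at most 6 and 7 counts in a library.

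**Figure D3:**
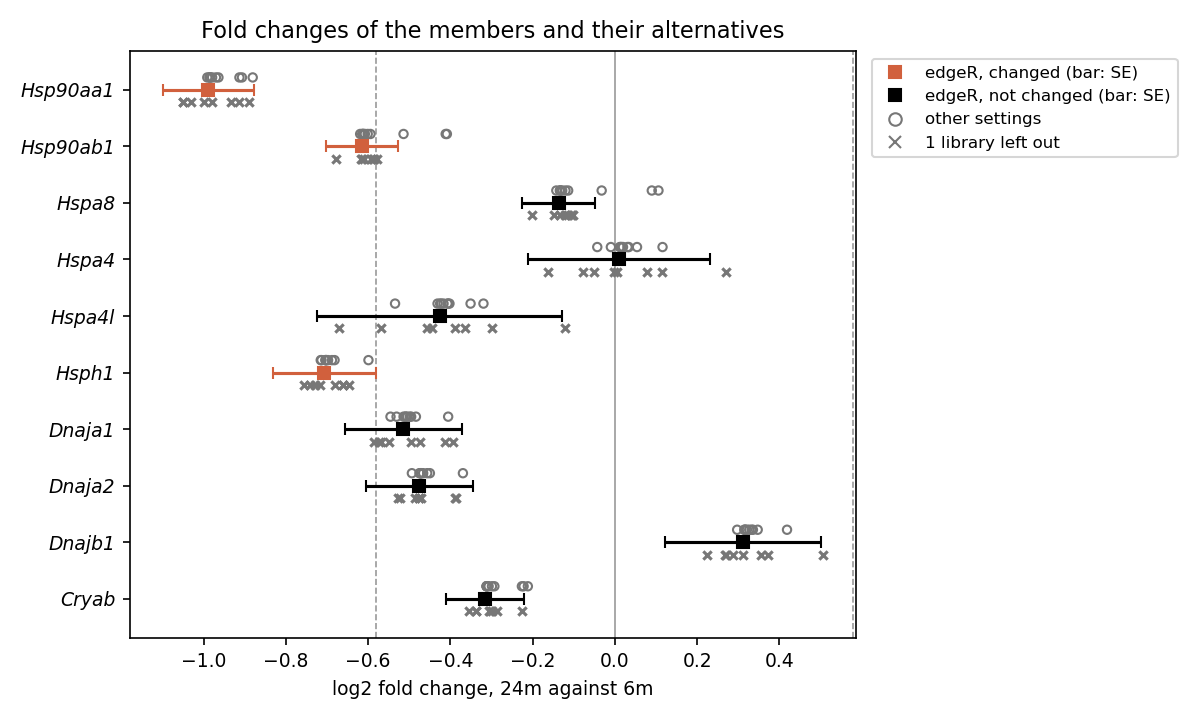
Log2FC of the chaperones, 24m against 6m (horizontal axis), as squares with SE bars (orange: changed, black: not changed), beside 10 other settings (circles) and the 8 fits without 1 library (crosses). Dashed lines mark the fold minimum of 0.58 in each direction, and Hsp90aa1 and Hsph1 stay past it throughout, whereas Hsp90ab1 comes back over it under 4 alternatives.

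To show which of the chaperones carry the letters read by heat shock factors near their start, the 250 bases before the annotated start site were taken from GRCm39. A pair of units was searched as GAANNTTC or TTCNNGAA, which read the same on both strands, and 3 chaperones held one. These 3 are printed with the match in capitals.
Hsph1: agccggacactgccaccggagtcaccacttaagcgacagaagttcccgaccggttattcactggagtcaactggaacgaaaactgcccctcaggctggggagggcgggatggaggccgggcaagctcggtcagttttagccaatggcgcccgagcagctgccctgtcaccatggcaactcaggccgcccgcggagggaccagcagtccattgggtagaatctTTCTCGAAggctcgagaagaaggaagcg
Dnaja1: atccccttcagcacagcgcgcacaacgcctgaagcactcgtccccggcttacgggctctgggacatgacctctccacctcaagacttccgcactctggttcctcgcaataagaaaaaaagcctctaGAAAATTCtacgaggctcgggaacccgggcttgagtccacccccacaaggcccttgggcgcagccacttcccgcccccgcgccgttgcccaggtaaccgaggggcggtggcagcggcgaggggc
Cryab: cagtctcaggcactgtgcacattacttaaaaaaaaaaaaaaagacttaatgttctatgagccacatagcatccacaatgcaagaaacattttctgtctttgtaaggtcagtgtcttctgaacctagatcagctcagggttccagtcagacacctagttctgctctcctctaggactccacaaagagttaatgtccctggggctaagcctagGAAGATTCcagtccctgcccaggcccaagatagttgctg

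These windows lie at chr5:149559807-149560056 (minus strand), chr4:40722218-40722467 (plus strand) and chr9:50663937-50664186 (plus strand). Counted back from the start site, the match began 28 bases before it in Hsph1, 124 in Dnaja1 and 39 in Cryab. A pair was found in 30% of the 10 chaperones, in 17.3% of 75 other tested chaperone network genes, in 10.9% of 9349 tested genes with a window and in 9.97% of the 391 genes changed and lower. All 3 chaperones with a match were lower at 24m by the adjusted p, but so were 3 without one, Hsp90aa1, Hsp90ab1 and Dnaja2. A run of 3 units, GAANNTTCNNGAA or TTCNNGAANNTTC, was in no chaperone and in 0.385% of tested genes. A match only says that the letters are there, and no match says only that they are not in this window.

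The other genes of the chaperone network were described from lists of 80 genes, of which 75 were tested. Of these, 2 were changed and higher and 2 changed and lower, beside 10.3% and 4.17% of all tested genes, and by the adjusted p alone 3 were higher and 15 lower, beside 12.3% and 9.42%. The median log2FC was -0.19, with 49 negative and 26 positive values. The count of changed genes depended on single libraries, with 1 higher without 6m replicate 1, 6m replicate 4 or 24m replicate 2, with 1 lower without 24m replicate 2 or 24m replicate 3, and with 4 lower without 24m replicate 4.

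The chaperonin TRiC, which is built from 8 different subunits and folds actin and tubulin, had the lowest median of the lists. All 8 subunit genes had a negative log2FC with a median of -0.40, 7 passed the adjusted p, and in 7 every 24m library lay below every 6m library, beside 9.42% and 9.96% of all tested genes. The subunit genes lay between 100 and 1000 CPM, where the share lower by the adjusted p was 16.6 and 32.8% as given above. Cct4 was the 1 subunit gene that was changed, from 168 CPM at 6m to 105 CPM at 24m, with a log2FC of -0.65 ± 0.13 (SE, edgeR adjusted p = 0.00106). It came under the fold minimum with library sizes alone (-0.54) and just under it without 24m replicate 1 (-0.58). Prefoldin, which hands actin and tubulin chains to TRiC, had 5 of 6 negative values with a median of -0.11.

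HSP90 cochaperones guide clients and set the pace of the ATP cycle. Of 20 tested, 16 had a negative log2FC, the median was -0.29, and none was changed in edgeR, DESeq2 or limma-voom, with 6 lower and 0 higher at an unadjusted p under 0.05, beside 1504 lower and 1715 higher of 9375 tested genes. The 4 of 20 that passed the adjusted p, beside 9.42% of all tested genes, were named after their values were seen. They were Stip1 (-0.48), which links HSP70 to HSP90, Ahsa1 (-0.33), which speeds the ATPase of HSP90, Pih1d1 (-0.54) and Ruvbl1 (-0.52). Pih1d1 and Ruvbl1 belong to the R2TP complex. Named as the rest of that complex, Rpap3 (-0.24, edgeR adjusted p = 0.596) and Ruvbl2 (-0.09, edgeR adjusted p = 0.761) did not pass. HSP70 cofactors were 9, of which 6 had a negative value, the median was -0.10, and Bag1 (-0.49) and Stub1 (-0.39), an exchange factor and a ubiquitin ligase that bind HSP70 and were also named after their values were seen, passed the adjusted p. These 2 of 9 stand beside 9.42% of all tested genes that were lower by the adjusted p. Bag1 lay between 100 and 300 CPM and Stub1 between 300 and 1000 CPM, where that share was 16.6 and 32.8%. None of the 9 was changed in edgeR, DESeq2 or limma-voom. At an unadjusted p under 0.05, 3 were lower and 0 higher, beside 1504 lower and 1715 higher of 9375 tested genes.

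Relatives of the HSP70, HSP110 and HSP40 genes had 11 positive and 7 negative values among 18 tested, with a median of 0.15. At an unadjusted p under 0.05, 4 were higher and 3 lower, beside 1715 higher and 1504 lower of 9375 tested genes. Limma-voom called 1 higher and 2 lower. In edgeR, 2 of the 18 were changed and higher, beside 10.3% of all tested genes, so the list did not stand out by its higher calls. The 2 changed and higher were Dnajc6, which codes for auxilin, the neuronal partner of HSC70 in uncoating clathrin vesicles (15.0 to 34.0 CPM, log2FC 1.20 ± 0.31 (SE), edgeR adjusted p = 0.00723), and Dnajc27 (4.78 to 12.5 CPM, log2FC 1.38 ± 0.45 (SE), edgeR adjusted p = 0.0305). For both, the libraries of the ages overlapped. Dnajc6 kept its call under all 18 alternatives, whereas Dnajc27 lost it in DESeq2 on raw counts (adjusted p = 0.0892), in DESeq2 and limma-voom with quantile normalization (0.143 and 0.149) and without 6m replicate 1 (0.0873), 6m replicate 4 (0.0796), 24m replicate 2 (0.139) or 24m replicate 3 (0.0818). In the mitochondrion, Hspd1, the gene of the chaperonin HSP60, fell with a log2FC of -0.63 ± 0.15 (SE, edgeR adjusted p = 0.00528), again with overlapping libraries, and the 7 mitochondrial chaperones had a median of 0.11. Hspd1 came under the fold minimum with library sizes alone (-0.52) and without 6m replicate 3 (-0.54), 24m replicate 2 (-0.56) or 24m replicate 3 (-0.56).

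**Figure D4:**
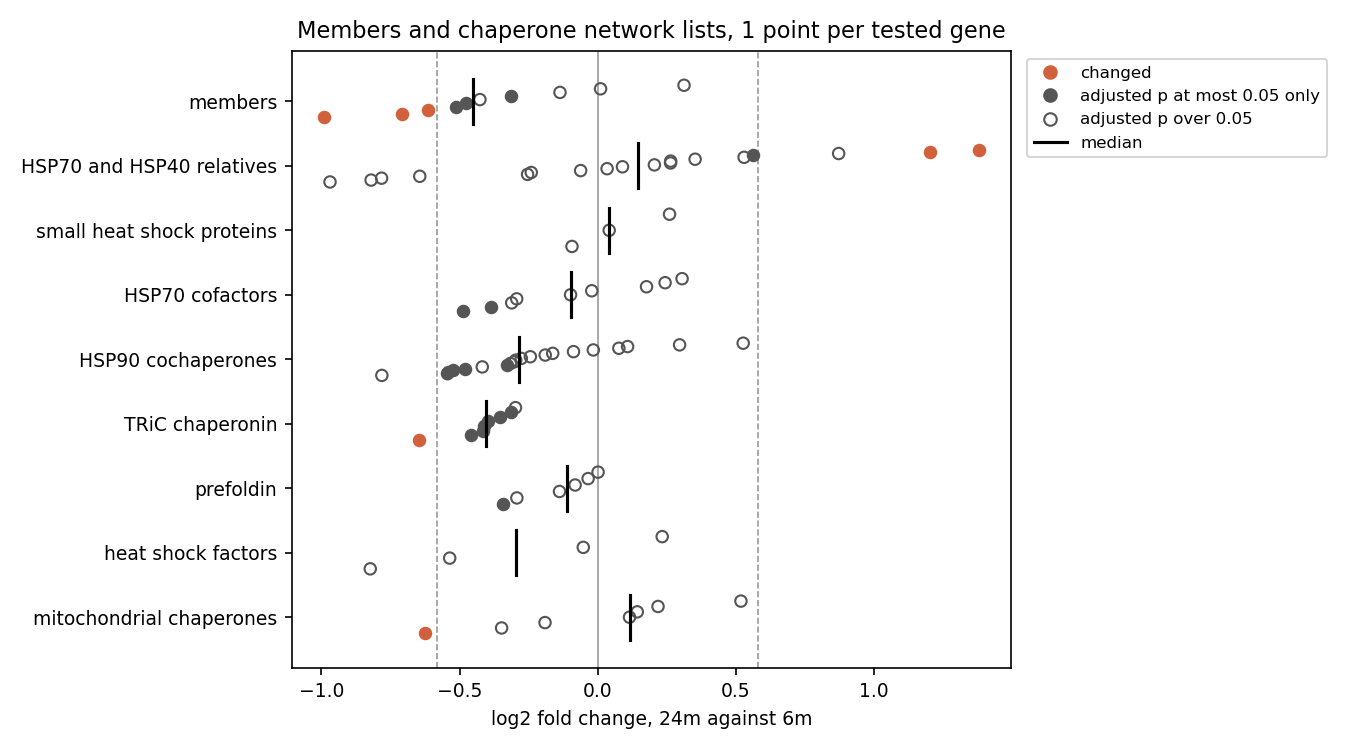
Log2FC, 24m against 6m (horizontal axis), of the 10 chaperones (row "members") and of 8 lists of other chaperone network genes, with 1 point per tested gene (orange: changed, dark grey: adjusted p of at most 0.05 only, open: neither) and the median as a black bar. Dashed lines mark the fold minimum of 0.58, and the medians run from -0.45 for the chaperones and -0.40 for TRiC to 0.15 for the HSP70 and HSP40 relatives.

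Of the other heat response genes, Hspa1a, Hspa1b, Hspb1, Bag3 and Hsf1 were followed whatever their values, and these 5 did not pass the test. Hspa1a, an inducible HSP70 gene, had 5 to 29 counts per library and a log2FC of 0.26 ± 0.27 (SE, edgeR adjusted p = 0.529). Its neighbour Hspa1b had a log2FC of 0.35 ± 0.29 (adjusted p = 0.413). Counts of both genes are uncertain because their sequences are nearly the same, a likeness that was not measured here. Hspb1, the small heat shock protein HSP27, had -0.09 ± 0.26 (adjusted p = 0.840), and Bag3, the cofactor that links HSP70 to autophagy, 0.24 ± 0.28 (adjusted p = 0.583). Hsf1, the gene of heat shock factor 1, had a log2FC of -0.54 ± 0.24 (adjusted p = 0.110) from 11 to 45 counts per library. Of the small heat shock protein list 3 of 6 genes were tested, and no gene of it and none of the 4 tested genes of the heat shock factor list, Hsf1, Hsf2, Hsf4 and the factor binding protein gene Hsbp1, was changed in edgeR, DESeq2 or limma-voom. At an unadjusted p under 0.05 there were 0 genes of the first list and 2 of the second, Hsf1 lower and Hsbp1 higher.

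Over the libraries, no single one was low for all chaperones. Among 24m libraries, replicate 3 had the lowest CPM for 5 of the 10 and replicate 4 for none of them, and among 6m libraries the lowest for 4 was replicate 2. Summed over the 10 genes the level was 6642 to 7037 CPM at 6m and 4851 to 5663 CPM at 24m. After the age means were taken off, the genes most like Hspa8 over the 8 libraries, of 2713 compared, were Pla2g7 (Pearson r = 0.965) and Inpp5j (0.963), those most like Hsp90ab1 were Psmd13 (0.990) and H2ac19 (0.988), and those most like Hsp90aa1 were Skic2 (0.958) and Phyhipl (0.935). These values are the highest of many and share library depth and scaling, so they are given as a description.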

How the data were processed

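Whole brain hemispheres of 4 6m and 4 24m male mice were measured, 1 ONT direct RNA library per mouse. The authors deposited whole-number read counts per gene, made by mapping the reads to GRCm39 with minimap2 (2.24 in the submitters' processing notes) and counting with featureCounts. Strand, overlap and multi-mapping settings are not given in the sources used here. Groups were taken from the sample labels.

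Genes with a mean count over 5 (98.6% of counts) were tested in R 4.3.3 with edgeR 4.0.16, by quasi-likelihood F tests between the ages without further covariates, after TMM scaling. DESeq2 1.42.0 and limma 3.58.1 served as alternatives. The fit was tested on simulated counts. Shares of paralogues were compared by exact permutation over the 70 assignments of libraries to ages. Positions, overlaps and start sites come from GENCODE vM39 on GRCm39, which matched 22281 of 22430 genes. Near-identical copies were searched with BLAST+ 2.17.0 at 95% identity over at least 50% of the canonical transcript. Counts limit precision to counting error plus the spread between 4 mice. The chaperones, lists and tests were chosen with earlier results of these data known. Every chaperone was named. From the other lists the changed genes with the 2 highest and 2 lowest log2FC were named, with 5 heat response genes whatever their values, and other names are marked where they occur. For the 3 chaperones of highest mean CPM, the 2 genes most like them were named from those with a mean count over 50.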

Additional observations from a re-analysis of the deposited data

Results flagged for a closer look

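In 2 of 32 groups of 4 libraries examined, 1 library stood apart from the other 3 by Dixon's test at the 95% level, where chance gives about 1.6. The total count of 6m replicate 2 was 573152, while the other 6m libraries had 818963 to 843706. Hspa8 was at 2890 CPM in 24m replicate 4, while the other 24m libraries lay between 2330 and 2387 CPM. Without that library the log2FC of Hspa8 was -0.20 (edgeR adjusted p = 0.102), and the cause was not tested.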

How the results depend on the processing

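Of 180 single values of the chaperones under an alternative, 167 kept their direction and side of the threshold. Hsp90aa1 and Hsph1 kept their call throughout. Hspa8 turned to 0.0898 and 0.106 with quantile normalization in DESeq2 and limma-voom, and Hspa4 to -0.0427 and -0.00967 there and to between -0.16 and 0.27 without 1 library, where the values below 0 were -0.001 without 6m replicate 2, -0.16 without 6m replicate 4, -0.08 without 24m replicate 1 and -0.05 without 24m replicate 4. Chaperones changed and lower were 3, or 6 by the adjusted p alone, with 2 to 4 without 1 library. They were 2 with library sizes alone and with quantile normalization in DESeq2 or limma-voom. Network genes changed and higher were 2, with 4 under library sizes alone, 1 in DESeq2 on raw or quantile-normalized counts, 1 in limma-voom and 1 to 3 without 1 library. Network genes changed and lower were 2, with 0 under library sizes alone, 4 in limma-voom, 15 by the adjusted p alone and 1 to 4 without 1 library. The share of Dnaja1 differed by -3.35 to 1.22 percentage points without 1 library. The cause of these changes was not tested. The median log2FC of all genes was 0.10 with library sizes alone, and Hsp90ab1 was 0.51 below 0 there. With a replicate block, 3 chaperones and 3 network genes were changed and lower and no call on a chaperone changed. Same-numbered libraries did not deviate together (r from -0.16 to 0.06, with the own number highest in 1 of 4). These values gave no sign of pairing, but they cannot tell whether same-numbered libraries shared a run. For all genes, DESeq2 on raw counts called 629 higher and 205 lower, beside 968 and 391. Counts were lowest for Hspa4, Hspa4l and Dnajb1, at 9 to 59 per library.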
